A study of Homo sapiens with 11 samples.

Results

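The genes described here encode the proteins of the cytosolic ribosome, and 87 of the 20500 entries in the authors' table belong to them. Members were the entries whose symbol starts with RPL or RPS followed by a digit, together with RPLP0, RPLP1, RPLP2 and RPSA. Another 35 names of that form were left out, 25 because they end as pseudogene names do and 10 because they name S6 kinases. Of the 87 genes, 53 carry large subunit names and 34 small subunit names, and 10 are paralogs of another member, such as RPL22L1 beside RPL22. Their messenger RNA was measured by stranded, poly(A)-selected RNA sequencing in 786-0 cells, an established line from a human renal cell carcinoma. The control group, 6 libraries, received the vehicle DMSO for 4 h. The other group, 5 libraries, received everolimus in DMSO for 4 h, at a dose that the labels write as 10um and that is read here as 10 µM. Everolimus inhibits mTOR, and no genotype was changed in either group.

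Ribosomal proteins assemble with ribosomal RNA into the large and small subunits, and a growing cell spends much of its messenger RNA on them. Their transcripts begin with a terminal oligopyrimidine (TOP) tract, a cytosine followed by an unbroken run of pyrimidines. When mTOR complex 1 is inhibited, these transcripts are known to leave polysomes, and the RNA-binding protein LARP1 binds their capped start and is known to stabilise them. Such control acts on translation, so the level of messenger RNA measured here need not follow it. Several non-coding genes that carry small nucleolar RNAs (snoRNAs) in their introns are also known as TOP genes, among them GAS5 and members of the SNHG family.

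The TOP tracts were read from RefSeq start sites on build GRCh38.p14, whose promoter table held 70 of the 87 genes. A tract, defined as a C followed by at least 4 further pyrimidines, began exactly at the start in 44 of the 70 (62.9%) and within 10 bases of it in 58 (82.9%). Over all 35116 promoters of the table the shares were 4.07% and 32.9%. The windows printed here are those of ribosomal protein genes whose values carry the results, and of 3 snoRNA host genes for comparison. Each runs from 10 bases before the start to 20 bases from it, 5′ to 3′, with the tract in capitals.
RPLP0: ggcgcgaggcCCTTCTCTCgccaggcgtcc
RPS6: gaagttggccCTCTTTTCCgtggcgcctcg
RPL4: cgggagtggtaagcaCTTCCTTTTCCTgtg
RPL21: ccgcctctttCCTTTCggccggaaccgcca
RPS28: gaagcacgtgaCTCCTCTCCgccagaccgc
RPL39: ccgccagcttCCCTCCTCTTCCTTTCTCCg
SNHG12: gcttcagcgcCCTTTCTCCCCgccgcattc
SNHG7: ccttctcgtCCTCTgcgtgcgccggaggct
SNHG5: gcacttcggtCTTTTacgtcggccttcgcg
These lie at chr12:120201092-120201121 (minus strand) for RPLP0, chr9:19380217-19380246 (minus) for RPS6, chr15:66504836-66504865 (minus) for RPL4 and chr13:27251548-27251577 (plus) for RPL21. Those of RPS28 and RPL39 lie at chr19:8321486-8321515 (plus) and chrX:119791611-119791640 (minus). The host windows lie at chr1:28581854-28581883 for SNHG12, chr9:136728165-136728194 for SNHG7 and chr6:85678714-85678743 for SNHG5, all on the minus strand. Tract length ranged in these windows from 5 bases, in SNHG7 and SNHG5, to 19 bases in RPL39. A tract match describes letters near an annotated start and is no measurement of translation.

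The table's values are a signal, estimated read counts that the authors scaled so that the upper quartile of each column is near 1000, and are called units here. The estimated depth was 14230631 to 36827392 reads in the control libraries and 29760752 to 52523532 in the everolimus libraries, so that 1 read was worth 0.307 to 1.05 units. Markers fitting a renal line were present (PAX8 at 3189 units in controls), except that CA9 stayed at or below 3.1 units. Of 9 markers of other cell types, 3 were at 0 in every library, and the list summed to 97.4 to 150.1 units in controls and 121.4 to 137.9 units with everolimus. The pair of that list that passed the filter differed in direction: EPCAM rose from 55.2 to 67.6 units (log2 fold change 0.29, limma adjusted p = 0.00499), and COL1A1 read 75.5 and 61.2 units (log2 fold change -0.27, limma adjusted p = 0.17). In bulk RNA, a change in the number of cells cannot be told apart from a change in RNA per cell.

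The libraries fell into a pair of sets whose ribosomal protein values differed, and each set held control and everolimus libraries. Controls 1 to 3 and everolimus 1 and 2 form the first set, and controls 4 to 6 and everolimus 3 to 5 the second. No label calls these batches. With the treatment in the model, 24 of the 83 ribosomal protein genes tested were lower in the second set and 1, RPLP1, was higher (limma, Benjamini-Hochberg adjusted p under 0.05). These are 28.9% and 1.2% of the members, beside a background of 2.23% of all 12668 tested genes lower and 1.72% higher. The filter asked for at least 10 units in at least 5 libraries. RPL21 and RPS28, both among the 24, reached 10 units only in the first set. For them, being lower in the second set was thus fixed by the filter, and their calls are no test of it. Each member named for this difference, other than those in the naming rule, was chosen after its values were seen.

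RPL21 and RPS28 were nearly absent from the second set. RPL21, a large subunit protein, read 1036, 871 and 1095 units in controls 1 to 3 and 800.2 and 878 units in everolimus 1 and 2. In the second set it read 4.2, 1.82 and 2.09 units in controls and 0.92, 0.53 and 1.19 units with everolimus. Every value of the second set was thus far below every value of the first, and near the 0.92 to 3.15 units that 3 reads are worth. RPS28, a small subunit protein, read 38.5 to 62.6 units in the first set and was listed at 0 in 5 of the 6 libraries of the second, with 0.4 units in everolimus 5. No fold is given for either gene between sets.

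Other members that were more than 2-fold lower in the second set, 7 of 83 in all with RPL21 and RPS28, kept clear signal there. The background was 87 of all 12668 tested genes called more than 2-fold lower. RPL7, a large subunit protein, had 3396 to 4141 units in the first set and 518 to 737 units in the second, a log2 difference of -2.64 (SE 0.070, limma adjusted p = 7.97e-14). RPL39, which lies by the tunnel through which the nascent chain leaves, had 1431 to 2204 units against 464 to 662 units (log2 difference -1.73, SE 0.098). Neither gene's sets overlapped. RPL36A and RPL17, also of the large subunit, differed by -1.40 and -1.06 on the log2 scale. RPSA, the small subunit protein also known as the laminin receptor, had 7348 to 8359 units in the first set and 4875 to 5431 units in the second, with no overlap (log2 difference -0.62, SE 0.031). RPLP1, a protein of the stalk that recruits elongation factors, had 8001 to 9313 units in the first set and 9219 to 11111 units in the second, with the sets overlapping.

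**Figure D1:**
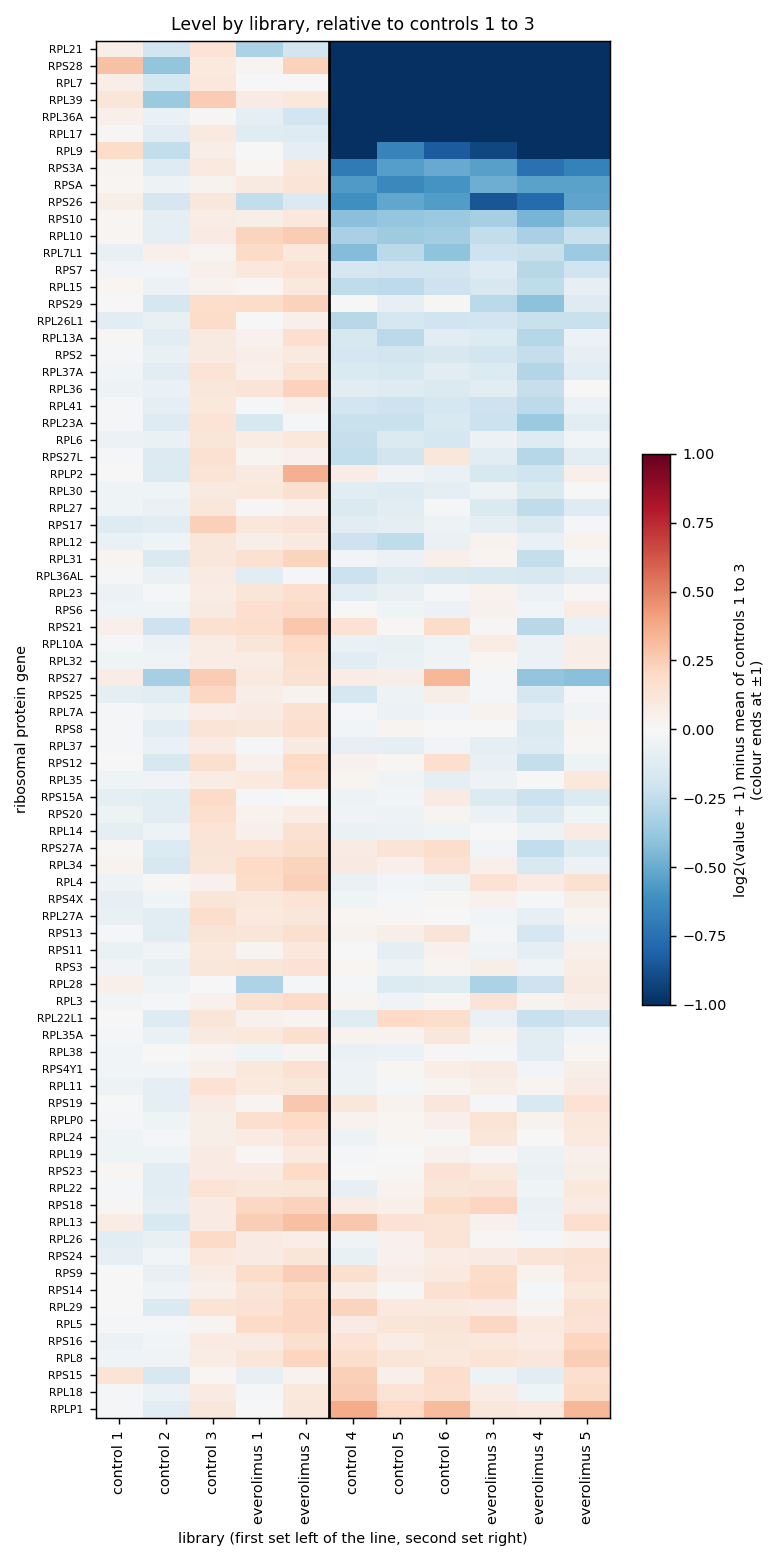
Level of 81 tested ribosomal protein genes (rows, ordered by the difference between library sets) in each of the 11 libraries (columns), as log2(value + 1) minus the mean of controls 1 to 3; colour ends at ±1. The top rows, from RPL21 to RPL17, are blue in all 6 libraries right of the line, whichever treatment they received.

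Members that were lower in the second set shared more of their sequence with other genes. On the shortest principal transcript of each gene in GENCODE 29, the share of 50-base windows that also occur in another gene had a median of 62.7% over the 24 lower members (range 0.67% to 90.4%). Over the 58 members with no called difference it was 24.7% (range 0% to 84.3%). More than 50% of windows were shared in 15 of the 24 and in 10 of the 58, and the median number of named pseudogenes was 15 and 5. RPL17 and RPL21 stood at 90.3% and 77.6%, read on transcripts of 669 and 616 bases. RPS28 stood at 12.6%, read on a transcript of 1326 bases, and RPL37A, the lowest of the 24, on a transcript of 3647 bases. The share depends on the transcript picked, and other transcripts were not tried. Another gene means any other gene name, and names annotated over the same locus were not left out. The sets also differed in how many low values lay within 0.1 of a whole number of reads: 89.4% to 90.3% in the first and 93.4% to 94.0% in the second. Whether shared sequence or this difference in the deposited values plays a part in the set difference was not tested, and levels of genes with many near-identical copies are uncertain.

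**Figure D2:**
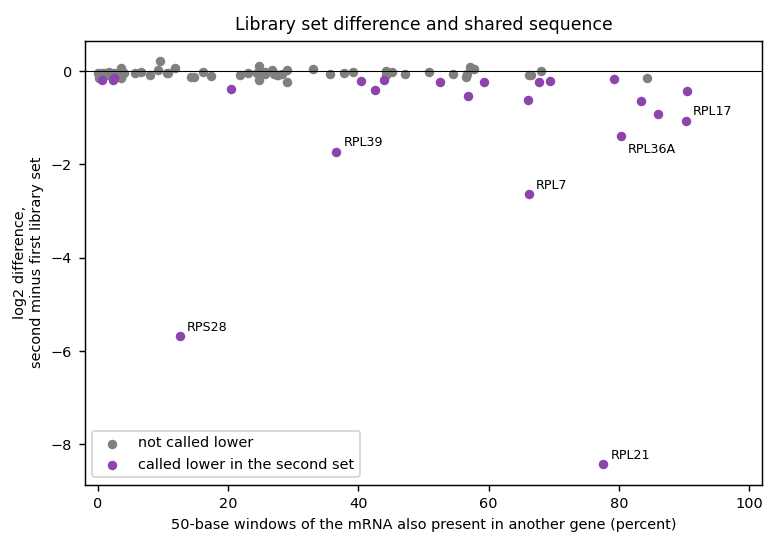
Difference between library sets (log2, second minus first, y axis) against the percent of 50-base mRNA windows also present in another gene (x axis), 1 point for each of 81 tested ribosomal protein genes. Members called lower are purple. The median over all 24 of them is 62.7%, and RPS28 lies at 12.6%, read on a transcript of 1326 bases.

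Summed over all members, ribosomal protein transcripts took up a close share of the signal in the control and everolimus groups. The 87 genes summed to 3.40% of the column total in controls (SD 0.134, n = 6) and 3.33% with everolimus (SD 0.191, n = 5), a difference of -0.072 percentage points that is smaller than either SD. In the first set the controls stood at 3.43%, 3.31% and 3.64% and the everolimus libraries at 3.48% and 3.56%. In the second set the controls stood at 3.40%, 3.26% and 3.36% and the everolimus libraries at 3.21%, 3.10% and 3.29%. Groups overlapped in both sets, and the difference was 0.060 points in the first and -0.140 points in the second. Control 3 was the highest library and everolimus 4 the lowest.

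**Figure D3:**
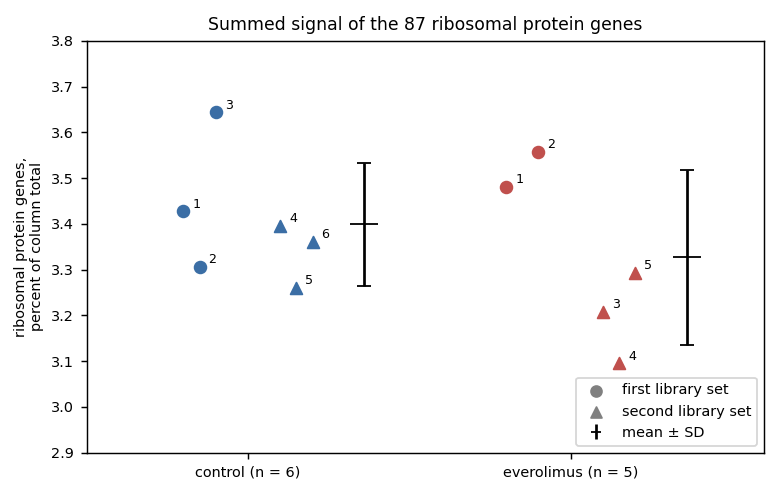
Summed signal of the 87 ribosomal protein genes as a percent of the column total, 1 point a library, numbered by replicate; circles are the first library set, triangles the second, and the bar is the mean ± SD. Control (3.40%) and everolimus (3.33%) overlap, and the axis starts above 0.

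Single members moved little. Everolimus was followed by higher levels of 9 of the 83 tested members (10.8%; background 27.8% of all tested genes) and lower levels of 0 (background 27.4%) by limma at adjusted p under 0.05. Quantile normalization gave 1 higher and 7 lower, and equal column totals gave 1 higher and 5 lower. Those fits called 7281 and 7523 of all tested genes in either direction, beside 6997 of 12668 in the main fit. At an unadjusted p under 0.05, 11 members were higher and 0 lower, where 59.9% of all tested genes passed in either direction. They included RPL3, RPL4, RPL5, RPL10A, RPL24 and RPLP0 of the large subunit and RPS6 and RPS24 of the small, and none of the 9 was among the 24 genes that were lower in the second set. Those 24 had a median residual SD of 0.238 on the log2 scale in this fit, beside 0.090 for the 58 members with no called set difference. With the library set as a covariate, 7 of the 24 were called, RPL6, RPL7L1, RPL10 and RPSA higher and RPL21, RPL36A and RPS26 lower (backgrounds in that fit 28.7% and 28.2% of all tested genes). The median log2 fold change over the 83 was 0.021, beside -0.008 over all tested genes. For 67 of the 83 the 95% interval lay inside 1.2-fold either way. The call rate for members was thus below the background in both directions.

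RPL4, a large subunit protein at the exit tunnel, was the only member whose groups did not overlap (background 20.3% of all tested genes higher without overlap, 17.6% lower). It read 14708, 15358 and 15703 units in controls 1 to 3 and 14566, 14952 and 14704 units in controls 4 to 6. With everolimus it read 17361 and 17951 units in the first set and 16891, 16167 and 16981 units in the second. Every treated library exceeded every control, with means of 14998 units (SD 444, n = 6) and 17070 units (SD 655, n = 5). The log2 fold change was 0.19 (SE 0.033, limma adjusted p = 0.000251), and within sets it was 0.21 and 0.18. It was the member called higher under quantile normalization (log2 0.08, limma adjusted p = 0.029) and with equal column totals (log2 0.11).

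RPS6, the small subunit protein that S6 kinases phosphorylate downstream of mTOR complex 1, read 12833, 12777 and 14014 units in controls 1 to 3 and 13148, 12817 and 12673 units in controls 4 to 6. Everolimus libraries read 14828, 15052, 13604, 12920 and 13895 units, so that the groups overlapped through control 3 and everolimus 4. Its log2 fold change of 0.11 (SE 0.042, limma adjusted p = 0.0441) became -0.00 under quantile normalization.

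RPLP0, the protein that anchors the stalk of the large subunit, read 12738 units in controls (SD 353, n = 6) and 13755 units with everolimus (SD 605, n = 5), a log2 fold change of 0.11 (limma adjusted p = 0.0135) that was 0.00 under quantile normalization. RPLP1 and RPLP2, the acidic proteins it carries, had log2 fold changes of -0.02 (SE 0.081) and 0.03 (SE 0.083), and neither passed the test. RPL3, which borders the peptidyl transferase centre, had a log2 fold change of 0.11 (SE 0.033), and RPL5, which binds the 5S ribosomal RNA, had 0.12 (SE 0.036). Under quantile normalization RPL3 turned to -0.04 and RPS24 from 0.11 to -0.01. RPL11, the partner of RPL5 in that particle and in binding MDM2, had 0.08 (SE 0.039, limma adjusted p = 0.0994).

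RPL8, RPL3 and RPL4 had the highest mean units among members, a measure that is not corrected for transcript length and so does not rank the genes by abundance. RPL8, a large subunit protein, read 19298 units in controls (SD 1162, n = 6) and 20644 units with everolimus (SD 889, n = 5), and its log2 fold change of 0.10 did not pass (limma adjusted p = 0.0733). RPS27A, which is made as a fusion with ubiquitin, had -0.08 (SE 0.075), and RPL10, which joins the large subunit late in its assembly, had 0.11 (SE 0.116). RPSA had 0.04 with an SE of 0.166. With the library set as a covariate RPL10 and RPSA were both called higher (log2 0.15 and 0.10, limma adjusted p = 0.00567 and 0.0124). That fit called 16 members higher and 3 lower, RPL21, RPL36A and RPS26 (backgrounds 28.7% and 28.2%), and the value of RPL21 rests partly on levels near 3 reads.

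**Figure D4:**
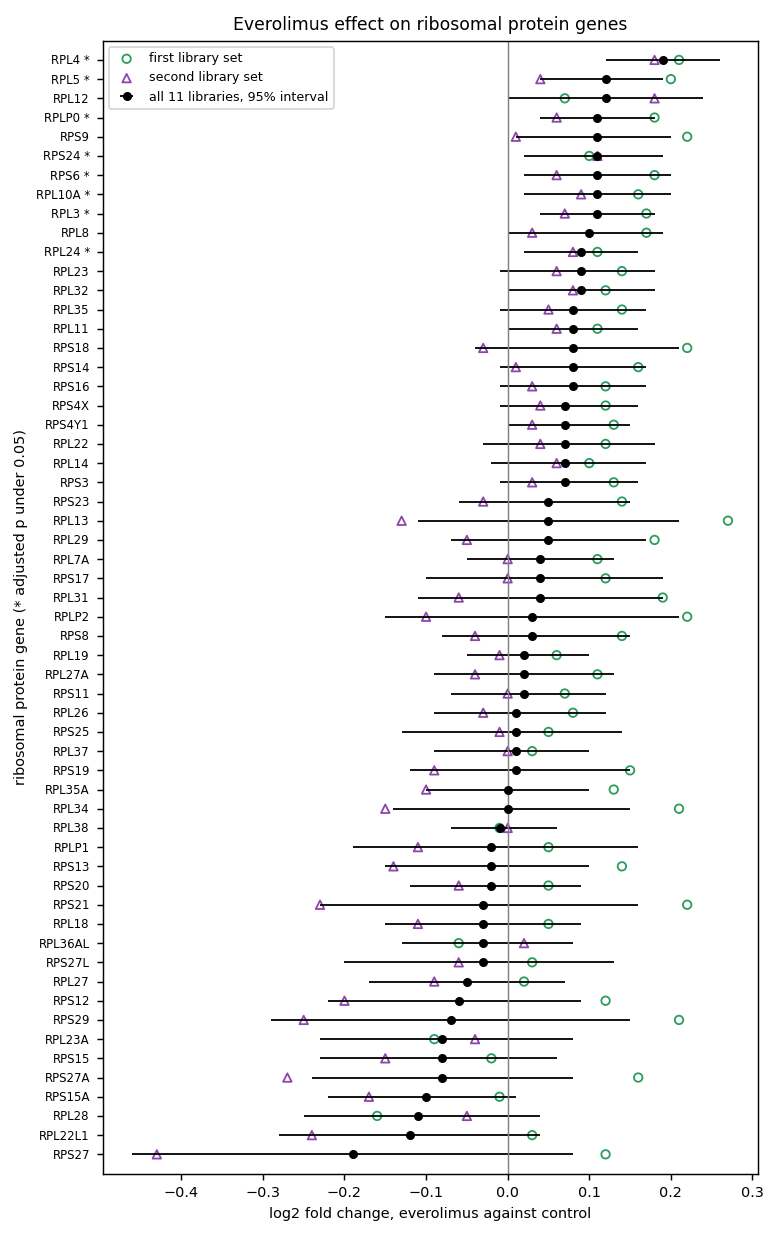
Log2 fold change of everolimus against control (x axis) for ribosomal protein genes tested and not called lower in the second library set (rows, those reported here); black points with 95% intervals use all 11 libraries, open circles the first set and open triangles the second. RPL4 lies at 0.19 with both sets on the same side, while for RPS27A the circle and triangle lie on opposite sides of 0.

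The sets differed in where members fell. Within the first set, 18 members were higher with everolimus and 1, RPL21, was lower (backgrounds 24% and 19.3%), with a median log2 fold change of 0.114. Within the second, 2 were higher, RPL4 and RPL12, and 8 were lower (backgrounds 21.1% and 22.5%), with a median of 0.000. Those 8 were RPL22L1 and RPL39 of the large subunit and RPS12, RPS15A, RPS21, RPS27, RPS27A and RPS29 of the small. The counts depended on scaling: equal column totals gave 6 higher and 6 lower in the first set, and 0 higher and 21 lower in the second. Shares of all tested genes were not counted in these rescaled fits, so their counts are not a result about the members. The test of the difference itself, an interaction term, called 0 members and 0 of all 12668 tested genes by limma. At an unadjusted p under 0.05 it gave 18 members, all with a lower effect in the second set, beside 6.18% of all tested genes.

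RPS27A had the smallest unadjusted interaction p among members. It read 4095, 3696 and 4448 units in controls 1 to 3 and 4484 and 4592 units in everolimus 1 and 2. In the second set it read 4316, 4450 and 4590 units in controls against 3996, 3426 and 3703 units with everolimus. Treated libraries thus stood above all controls in the first set and below all controls in the second, with log2 fold changes of 0.16 and -0.27. The difference of -0.42 (SE 0.097) had an adjusted p of 0.785 in the limma fit over all genes. RPS29 and RPS21, also of the small subunit, had differences of -0.46 and -0.45.

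The same pair of libraries stood at the ends for most members. Control 3 was the highest control for 54 of the 83 members and for 21.7% of all tested genes. Everolimus 4 was the lowest treated library for 70 of the 83 and for 41.7% of all tested genes, and everolimus 2 was the highest for 65 and for 31.0% of all tested genes. Without control 3 the count of members called higher was 16, without everolimus 4 it was 15, and without both it was 26, with 0 lower in each. Without control 1 it was 5. Members tested numbered 81 in these fits, or 83 without everolimus 4 alone. Shares of all tested genes called were not counted in them, so the changes in count are not a result about the members. Control 3 was the highest control and everolimus 4 the lowest treated library for most members. Leaving these libraries out therefore moves most members upward by construction. Leaving out everolimus 2 together with a low control was not run. The part these libraries play in the result beyond these counts was not tested.

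Paralogs split into expressed and silent genes. RPL3L, known from striated muscle, and RPL10L, known from testis, were listed at 0 in all 11 libraries. RPL39L and RPS4Y2 were listed above 0 once each, at no more than 0.454 units, and these 4 genes were the members left out by the filter on low values. The other 6 passed it. RPS4Y1, the Y-linked copy of RPS4X, had 4978 units in controls (SD 156, n = 6) and 5231 units with everolimus (SD 238, n = 5), with a log2 fold change of 0.07 in both copies, neither past the threshold.

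RPL22L1, the paralog whose level RPL22 is known to restrain in mouse cells, read 421, 384 and 458 units in controls 1 to 3 and 385, 483 and 474 units in controls 4 to 6. With everolimus it read 432, 428, 401, 359 and 370.5 units, overlapping the controls (log2 fold change -0.12, SE 0.074, limma adjusted p = 0.178). RPL22 itself had 0.07 (SE 0.049). RPL7L1, RPL26L1, RPL36AL and RPS27L had log2 fold changes between -0.03 and 0.08, and none passed the test. Of the conventional partners, RPL26 had 0.01 (SE 0.050) and RPS27 had -0.19 (SE 0.126), while RPL7, RPL36A and RPL39, which differed between sets, had SEs from 0.383 to 0.707.

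The symbol rule misses 3 ribosomal proteins, of which 1 was higher and 0 lower (backgrounds 27.8% and 27.4% of all tested genes). Their median log2 fold change was 0.08. GNB2L1, the older symbol of the small subunit scaffold RACK1, rose from 19073 units (SD 284, n = 6) to 20655 units (SD 811, n = 5), a log2 fold change of 0.11 (limma adjusted p = 0.006) that turned to -0.04 under quantile normalization. FAU, made as a fusion with a ubiquitin-like protein, had 0.07 (SE 0.045) and did not pass the threshold.

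Most of the non-coding snoRNA hosts listed as TOP genes were lower after everolimus. Of 8 hosts, 6 were lower and 0 higher by limma, with a median log2 fold change of -0.30, beside the background of 27.4% of all tested genes lower. The same count, 6 lower, held under quantile normalization and with equal column totals, and within the sets 4 and 6 were lower. SNHG7 read 1194, 1078 and 1151 units in controls 1 to 3 and 1186, 1199 and 1114 units in controls 4 to 6. With everolimus it read 707, 814, 723, 634 and 723 units, with no overlap and a log2 fold change of -0.68 (SE 0.054, limma adjusted p = 8.97e-08). Treated libraries averaged 37.6% below the controls.

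SNHG12 fell from 1019 units (SD 40.8, n = 6) to 700 units (SD 63.9, n = 5), SNHG1 from 1475 units (SD 53.8) to 1013 units (SD 58.5), and GAS5 from 1420 units (SD 53.8) to 1113 units (SD 113). None of these groups overlapped, and the log2 fold changes were -0.54, -0.54 and -0.36. SNHG5 and SNHG6, chosen to be named after their values were seen, had -0.05 (SE 0.065) and -0.00 (SE 0.070) and did not pass. The tract of SNHG5 printed above is as long as that of SNHG7. Within 10 bases of the start, 5 of the 7 hosts found in the promoter table had a tract as defined here, and GAS5 and SNHG1, which were both lower, had none.

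Other protein genes with known TOP tracts moved in both directions. Of 17, 7 were higher and 2 lower (backgrounds 27.8% and 27.4%; median log2 fold change 0.07), whereas quantile normalization gave 2 higher and 5 lower and equal column totals 4 and 4. EEF2, the translocation factor, had a log2 fold change of 0.26 (SE 0.046) that was 0.07 and not past the threshold under quantile normalization. EIF2S3, a subunit of the factor that brings the initiator tRNA, read 3916 to 4247 units in controls and 4493 to 4878 units with everolimus (log2 fold change 0.18, SE 0.031). EEF1B2, an exchange factor of elongation, had 0.21 (SE 0.042). Of the 12 genes of this list found in the promoter table, 9 had a tract within 10 bases of the start, and EEF1B2 had none. EIF3E, a subunit of an initiation complex, was lower, with 4767 to 5567 units in controls and 4394 to 4722 units with everolimus (log2 fold change -0.19, SE 0.041).

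Among 20 regulators of ribosomal protein synthesis, 7 were higher and 2 lower (backgrounds 27.8% and 27.4%; median log2 fold change 0.03), whereas equal column totals gave 3 higher and 5 lower. MYC, a transcription factor that drives ribosomal protein genes, rose from 934 units (SD 73.6, n = 6) to 1972 units (SD 142, n = 5), a log2 fold change of 1.08 (SE 0.058, limma adjusted p = 1.39e-09) with no overlap. Its partner MAX had 0.35 (SE 0.042), and EIF4EBP2, a repressor of cap-dependent initiation that mTOR phosphorylates, had 0.24 (SE 0.029). LARP1 had 0.08 (SE 0.032, limma adjusted p = 0.0488), and its call was lost under quantile normalization (log2 0.03, limma adjusted p = 0.537), with equal column totals (log2 0.00, limma adjusted p = 0.938) and with the library set as a covariate (limma adjusted p = 0.0518). RPS6KB1, an S6 kinase gene, fell by 0.14 on the log2 scale (SE 0.048, limma adjusted p = 0.0261), with the groups overlapping. Its call held under quantile normalization and with equal column totals. It was lost with a replicate block (limma adjusted p = 0.0799) and within the second set (limma adjusted p = 0.26). RPS6KB2, also an S6 kinase gene, had 0.04 (SE 0.049, limma adjusted p = 0.528). RPS6KA1, the other regulator called lower, had -0.10 (SE 0.028, limma adjusted p = 0.00628). Both were chosen to be named after their values were seen.

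**Figure D5:**
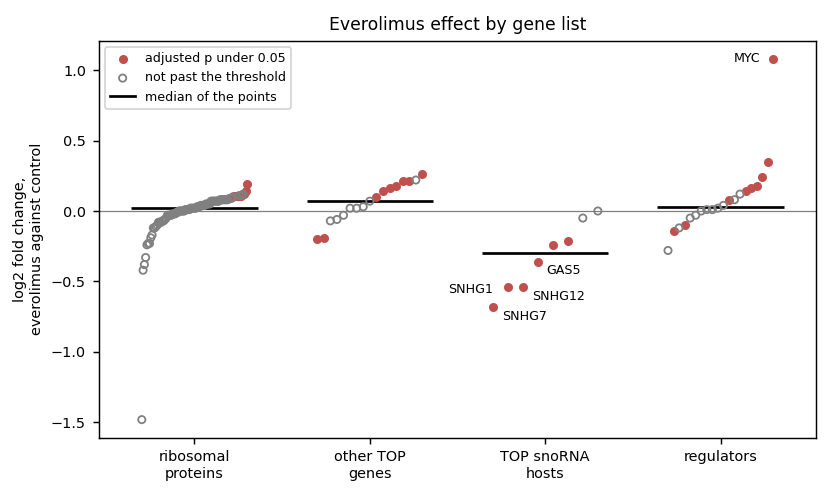
Log2 fold change of everolimus against control (y axis) for each tested gene of 4 lists, with red points past adjusted p under 0.05 and the bar at the median. Ribosomal proteins lie around 0.021, snoRNA hosts around -0.30 and MYC at 1.08; the lowest ribosomal protein point is RPL21, whose library sets differ.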

How the data were processed

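The authors deposited a table with 1 column for each of 11 libraries (6 control, 5 everolimus) and 0 columns of unknown origin. Its values are a signal: the deposited values are never negative, and per the file's values the upper quartile (percentile 75) of each column is near 1000. The submitters' processing notes name hg19, Picard 1.64, SAMtools and RSEM, which shares ambiguous reads between genes (aligner, annotation and strand use: not given in the sources used here). Of low values, 89.4% to 94.0% were whole reads (within 0.1). The values are scaled estimated counts and not raw counts, so no count model was used.

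Values were tested as log2(value + 1) by limma 3.58.1 (R 4.3.3), with the prior variance following mean level, two-sided, over 12668 genes with at least 10 units in at least 5 libraries, Benjamini-Hochberg adjusted with a threshold of 0.05. Fold changes are on that scale and understate low genes. The code was tested on simulated data. A few genes are counted in these totals but not reported here by name. Library sets, members and gene lists were chosen with earlier results of these data known, so no set test was made. The labels do not state separate cultures, so each p reflects spread that could be technical. Named genes were up to 8 called members per direction, members and paralog pairs of known role, the 3 highest members, those failing the filter, and up to 4 called genes of each list. Sequences come from RefSeq (GRCh38.p14), and shared windows from GENCODE 29. Alternatives covered scaling, pseudocounts of 0.1 and 10, filters, the trend, the library set, a replicate block and leaving out each library; leaving out control 3 with everolimus 4 was added after seeing the data.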

Additional observations from a re-analysis of the deposited data

Results flagged for a closer look

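Within each treatment group, 94 groups of values were examined for a library far from the rest, and 4 values stood apart, where chance gives about 1 in 20. RPS6 in control 3 was 14013.9 units, above the 12672.9 to 13148 units of the other controls. RPL22 in everolimus 4 was 5183.92 units, below the 5733.88 to 5823.09 units of the other treated libraries. GAS5 in everolimus 4 was 918.529 units, below 1130.15 to 1212.75 units. RPS6KB1 in control 4 was 686.254 units, below 779.581 to 828.244 units, and control 4 was the library with the fewest estimated reads.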

How the results depend on the processing

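RPL4, SNHG7, SNHG12, SNHG1, GAS5 and MYC kept their direction and stayed past the threshold in all 23 alternatives run. The count of ribosomal protein genes higher with everolimus, 9, became 1 under quantile normalization, 14 with median log ratio centring, 1 with equal column totals and 16 with the library set as covariate. It became 26 without control 3 and everolimus 4, an alternative chosen after seeing the data that moves most members upward by construction. The count lower, 0, became 7 under quantile normalization and 1 with an upper quartile over genes above 0 in every library. It became 5 with equal column totals and 3 with the library set as covariate. All tested genes called in either direction numbered 6997 in the main fit and 7281, 7270, 7523 and 7214 in those fits, in the same order. The median log2 fold change of the ribosomal protein genes, 0.021, became -0.0627 under quantile normalization, -0.0554 with equal column totals and 0.0987 without control 3 and everolimus 4. Over all tested genes the median, -0.008, became -0.037, -0.084 and 0.015 in those fits. Under quantile normalization RPS6 (-0.0021), RPL3 (-0.0399), RPS24 (-0.0060) and GNB2L1 (-0.0367) changed sign without being called. The replicate block gave 7 members higher and 1 lower. Deviations of same-numbered libraries correlated at 0.603, 0.422, -0.508, 0.336 and 0.351, and only everolimus 1 correlated best with its own number. These deviations also carry the difference between library sets, and control 3 and everolimus 3 lie in different sets. The check therefore cannot decide whether the numbers pair the libraries.

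Leaving out 1 library at a time gave 5 to 16 members higher and 0 to 1 lower, a median from -0.0066 to 0.0728 and a difference in share of the column total from -0.1298 to -0.0144 percentage points. For the lists it gave 5 to 6 snoRNA hosts lower and 0 to 0 higher, 6 to 7 other TOP genes higher and 2 to 3 lower, 6 to 7 regulators higher and 1 to 3 lower, and 1 to 2 ribosomal proteins outside the symbol rule higher and 0 to 0 lower. Those outside the rule numbered 0 higher under quantile normalization, 0 with equal column totals, 2 with the library set as covariate and 2 without control 3 and everolimus 4. Other TOP genes numbered 2 higher and 5 lower under quantile normalization and 4 higher and 4 lower with equal column totals. Regulators numbered 4 lower under quantile normalization, 3 higher and 5 lower with equal column totals, and 1 lower without control 3 and everolimus 4. Within the first set, members higher numbered 1 (quantile), 11 (upper quartile over shared genes) and 6 (equal totals), and members lower 4, 4 and 6, or 2 with median log ratio centring. Within the second set, members higher numbered 0 (quantile) and 0 (equal totals), and members lower 19 and 21. Shares of all tested genes called were not counted for rescaled fits within sets or for fits leaving out libraries. Column totals ran from 1.49e+07 to 1.54e+07 units in controls and from 1.57e+07 to 1.63e+07 units with everolimus, without overlap. Equal column totals therefore lower treated values relative to controls. With them the median log2 fold change over all tested genes went from -0.008 to -0.084. Other causes of these shifts were not tested. In the second set RPL21 lay near the value of 3 reads and RPS28 at or near 0, where depth limits any comparison.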
